A study of Mus musculus with 30 samples.

Results

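Ccdc64, Nin, Dync2h1 and Dync1i2 are 4 mouse genes of the minus-end-directed microtubule motor dynein and its partners, described here by the alternative exons that differed between classes of neuron or after loss of the splicing factor Nova2. They were selected on the measured values themselves, that is, on the inclusion levels, their differences and the authors' false discovery rate (FDR) in 4 deposited splicing tables. Those values are therefore given as a description, and no test of them was added. All events of any type with these gene symbols were taken, which gave 20 listed events of 6491 in all. Of the 20, Ccdc64 had 12, Nin had 5, Dync2h1 had 2 and Dync1i2 had 1. All 20 were cassette exons, that is, exons that are included or skipped as a unit, and they reduced to 11 exon forms in 5 exon regions.

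The study sequenced RNA of mouse neurons with and without Nova2, which binds RNA in neurons and decides which exons are joined. Its labels list 30 samples in 10 groups of 3, of which 18 samples in 6 groups underlie these tables, and 12 samples in 4 groups were not analysed here. All 18 came from C57BL/6J mice, and ribosomal RNA was removed before sequencing. The groups were conditional Nova2 knockout (cKO) and control cells sorted from Emx1-Cre cortex at embryonic day 18.5, cKO and control cells sorted from Gad2-Cre cortex at the same age, and cKO and control Purkinje tissue dissected from Pcp2-Cre mice at postnatal day 28. The genotype labels give the controls the same Cre as the cKO of their class, with wild-type Nova2, so cKO and control shared the Cre driver within each class. Between the Emx1-Cre and Gad2-Cre controls the driver differs along with the class, and the part of each in a difference cannot be told apart. Emx1-Cre is taken here to mark the excitatory lineage of cortex, Gad2-Cre its inhibitory neurons, and Pcp2-Cre the Purkinje cells of the cerebellum. The dissected layer can hold other cells, in which Pcp2-Cre is not known to act. The tables hold splicing events and no expression levels, so marker genes of the labelled cells were not read, and the purity of the sorts was not tested. Whether the 3 samples per group were separate animals is not labelled.

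For each group, a table holds a single inclusion level that the authors pooled over the samples, the fraction of RNA with the exon on a scale of 0 to 1. No level has a replicate error here, and the depth of the libraries is unknown. The tables list only events at an FDR of at most 0.05 with a difference of at least 0.1 in size, so an event that is not listed may have been too thinly covered, too alike, or too variable. A level is a share over all cells of a sample. A change within cells, fewer cells of a type and less RNA per cell cannot be told apart. The tables also give each event a coverage, which the sources used here do not define. Its median was 71 for Emx1-Cre, 64.0 for Gad2-Cre, 52 for the controls and 88.5 for Purkinje tissue. The Emx1-Cre and Gad2-Cre tables each share their control group with the table of controls.

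Cytoplasmic dynein carries vesicles, organelles and signals along microtubules toward the centrosome, in axons toward the cell body. The motor walks over long distances only when an adaptor with a long coiled coil joins it to its cofactor dynactin and to a cargo. A separate motor, dynein 2, works in cilia, where it returns material from the tip to the base. Ccdc64, which current annotation names Bicdl1 and whose protein is known as BICD-related protein 1, is such an adaptor and is known to link dynein to Rab6 vesicles and to the kinesin Kif1c in developing neurons. Ninein, the product of Nin, anchors microtubules at the mother centriole of the centrosome and can act as a dynein adaptor. Dync2h1 is the heavy chain, the ATP-driven part, of dynein 2, and Dync1i2 is an intermediate chain of dynein 1, whose N-terminal end contacts dynactin.

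Sequences are shown for the 4 exons that lie in coding sequence, because they show what each does to the message. They are from GENCODE M21 transcripts on mouse build mm10 (GRCm38), 5′ to 3′ on the gene's strand, with coordinates counted from 1. In Ccdc64, on the minus strand of chromosome 5, the first 15 bases are the end of the upstream exon in both lines. They run into the alternative exon as far as its stop codon (chr5:115651214-115651264) or, when it is skipped, into the next exon (chr5:115649519-115649569). Capitals mark the stop codon.
Ccdc64 included: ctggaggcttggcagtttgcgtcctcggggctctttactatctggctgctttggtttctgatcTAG
Ccdc64 skipped: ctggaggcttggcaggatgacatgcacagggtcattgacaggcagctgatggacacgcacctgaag

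In Nin, on the minus strand of chromosome 12, the line holds the whole late alternative exon (chr12:70022281-70022341) and the next exon as far as the stop codon that the insertion brings into frame (chr12:70021000-70021002). Capitals mark that stop codon.
Nin included: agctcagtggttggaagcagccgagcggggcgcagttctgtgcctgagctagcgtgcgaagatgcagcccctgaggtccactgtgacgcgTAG

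In Dync2h1 (minus strand, chr9:7045349-7045369) and Dync1i2 (plus strand, chr2:71233649-71233708), capitals mark the alternative exon, with 15 bases of the neighbouring exon on each side.
Dync2h1 included: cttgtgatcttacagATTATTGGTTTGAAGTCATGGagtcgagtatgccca
Dync1i2 included: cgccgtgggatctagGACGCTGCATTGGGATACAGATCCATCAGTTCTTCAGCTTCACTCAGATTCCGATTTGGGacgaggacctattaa

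The dynein adaptor Ccdc64 (ENSMUSG00000041609) had far less of an exon in both classes of cortical neuron that lacked Nova2. In the authors' deposited table for Emx1-Cre neurons, the 109 nt form of the exon was at an inclusion level of 0.107 in cKO, against 0.952 in controls, with an FDR of 6.93e-48 and a coverage of 161. The authors' deposited table for Gad2-Cre neurons put the same form at 0.250 in cKO, against 0.926 in controls, with an FDR of 7.53e-16 and a coverage of 90.6. The difference, cKO minus control, was -0.845 in Emx1-Cre and -0.676 in Gad2-Cre neurons. Of the messages counted, most thus had the exon in control neurons of both classes, and most lacked it in cKO neurons of both.

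Among all listed cassettes ranked by the size of their difference, this form stood 14th of 912 for Emx1-Cre and 13th of 726 for Gad2-Cre. Its levels in the control groups lay 0.0256 apart (Emx1-Cre minus Gad2-Cre), which is less than the smallest difference the authors listed, and the exon was not listed in the table of controls. The cKO levels lay further apart, at -0.144 for Emx1-Cre minus Gad2-Cre. By the other listed forms of the exon, described below, they were closer together, at 0.0479 in Emx1-Cre and 0.137 in Gad2-Cre cKO. The size of the gap between classes thus depends on the form. The change in Emx1-Cre neurons minus that in Gad2-Cre neurons was -0.169. That difference of changes has no test here, because the levels are pooled values from separate tables.

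In Purkinje tissue the exon was listed as well, but neither the labels nor the file says which group of that table is the cKO, and no direction is drawn from it. In the authors' deposited table the 109 nt form was at 0.873 in group 1 and 0.501 in group 2, with an FDR of 5.21e-09 and a coverage of 74.8. By this form the lower of these levels was well above both cortical cKO levels, 0.107 and 0.250. By the other forms, described below, the gap was smaller. Their lower Purkinje level was 0.306 to 0.310, against 0.0479 in Emx1-Cre cKO and 0.137 in Gad2-Cre cKO. The dissected layer differs from the sorted cells in age, in method and in the other cells it can hold, and the part these play in the level was not tested. The difference of 0.371, group 1 minus group 2, ranked 33rd of 268 listed cassettes.

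**Figure D1:**
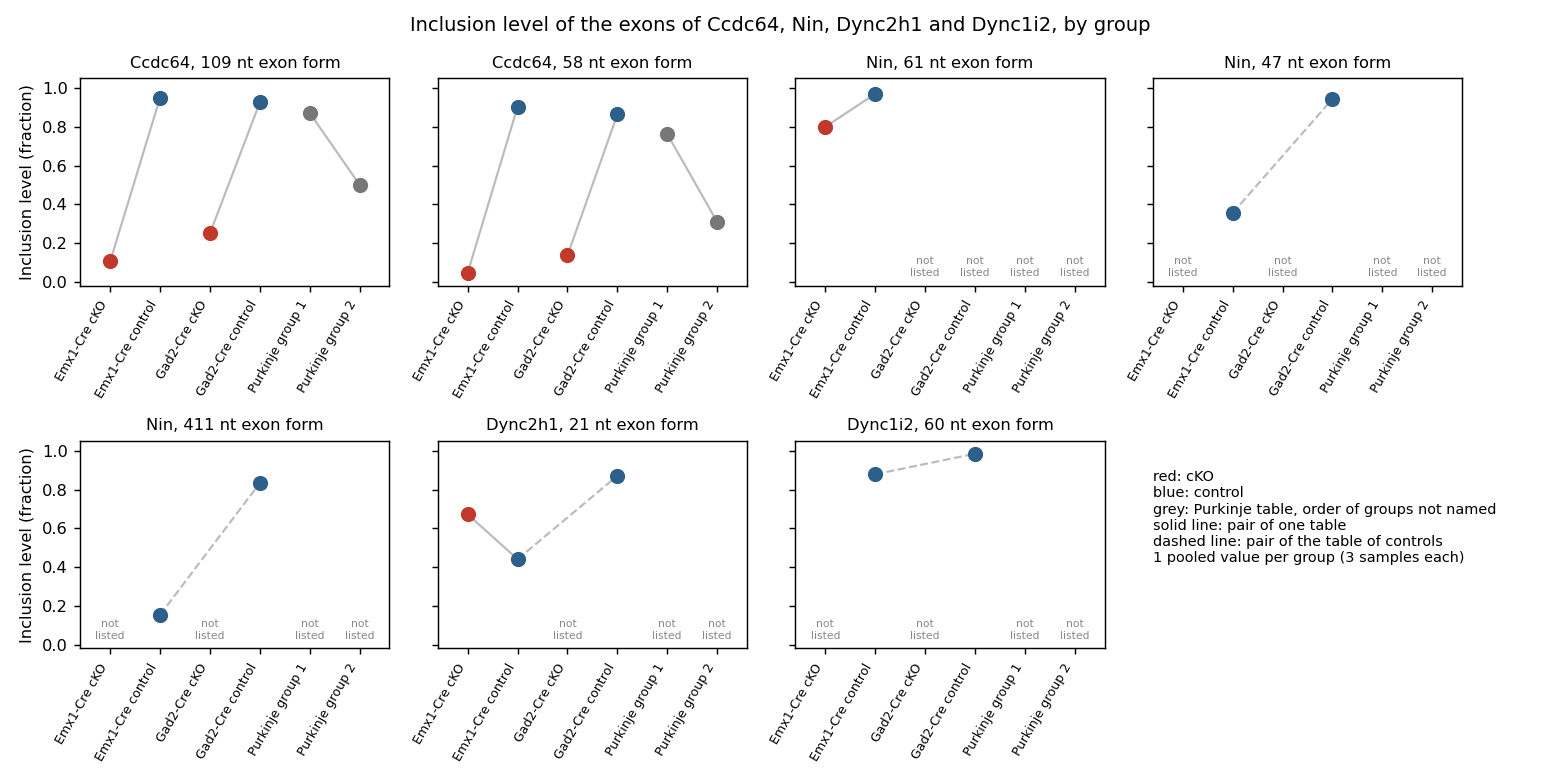
Inclusion level (fraction, vertical axis) of 7 exon forms of the 4 genes in the 6 groups of the tables, 1 pooled value for each group. Red points are cKO, blue points control and grey points the groups of the Purkinje table, whose order is not named; in Ccdc64 both cortical cKO levels, 0.107 and 0.250 for the 109 nt form, lie far under both control levels, 0.952 and 0.926.

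The plot of levels by group shows how little the cortical control groups differ in Ccdc64 and how far they differ in Dync2h1 and in the early exon of Nin. It also marks the groups in which an exon was not listed.

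The exon was listed in 4 forms of 45, 58, 109 and 227 nt, all on the minus strand of chromosome 5 with the same last base, at position 115651156, and thus the same 5' splice site. They differ in where they begin, at 115651200, 115651213, 115651264 and 115651382. Of the 4, the 109 nt form is in GENCODE M21, in 1 transcript, Bicdl1-206. The other 3 forms are not in that annotation. In the Emx1-Cre neurons those 3 were at 0.0479 in cKO, against 0.904 to 0.905 in controls, by the authors' deposited table. Their FDRs there were 6.7e-40 for the 45 nt form, 1.94e-40 for the 58 nt form and 1.12e-44 for the 227 nt form in the authors' deposited table. In Gad2-Cre neurons all 3 were at 0.137 in cKO, against 0.864 in controls, in the authors' deposited table. For Purkinje tissue the authors' deposited table gave them 0.759 to 0.763 in group 1 and 0.306 to 0.310 in group 2.

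The levels of the 3 forms differed by at most 0.00115 in the Emx1-Cre controls, by 0 in both Gad2-Cre groups and by at most 0.00476 in Purkinje tissue. They were therefore not separable in these tables, and the 4 listed forms are taken here as measures of 1 exon. The 109 nt form was higher than the other forms in every group, most of all in group 2 of the Purkinje table. By the 58 nt form, the Emx1-Cre change was -0.857, which ranked 6th of the 912 listed cassettes. It was -0.728 in the Gad2-Cre neurons. In Purkinje tissue, the 45 nt form had a difference of 0.454 and ranked 13th of 268.

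**Figure D2:**
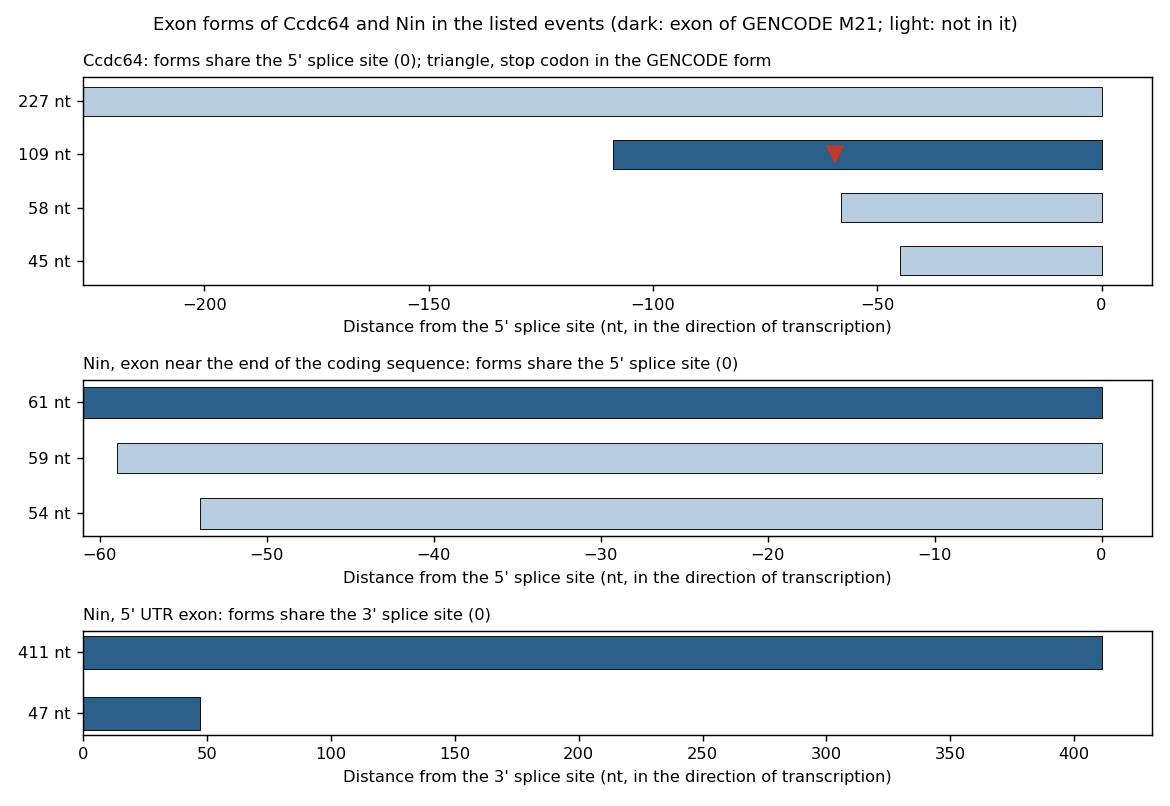
Exon forms of Ccdc64 and Nin drawn to scale, with distance in nt from the shared splice site on the horizontal axis, in the direction of transcription. Dark bars are exons of GENCODE M21 and light bars are not; the red triangle marks the stop codon of the 109 nt Ccdc64 form, which lies directly before the start of the 58 nt form.

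The map of exon forms shows that the stop codon of the 109 nt Ccdc64 form lies outside the 2 shorter forms. In GENCODE the exon follows a 121 nt exon and precedes the last coding exon, which holds 165 coding bases including the normal stop. The 109 nt form has 48 coding bases, then the stop codon TAG at 115651214 to 115651216, and 58 more bases of exon. Skipping the exon gives the reading frame of Bicdl1-201, the principal transcript, with 577 codons. With the 109 nt form put into that transcript the frame had 539 codons, so the end of the protein encoded by the last exon was replaced by 16 other codons. The transcript that carries the exon, Bicdl1-206, is annotated as a target of nonsense-mediated decay, the pathway that degrades messages whose stop codon lies well ahead of the last exon junction. Here the stop lies 58 bases ahead of it.

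The shorter forms also ended the frame inside the exon. With the 45 nt form the frame had 529 codons and ended in TAG, 24 bases ahead of the last junction. With the 58 nt form it had 541 codons and ended in TGA, 1 base ahead of the last junction. The frame of the 227 nt form was not read, because part of it is intron sequence. Whether the messages with the exon are degraded or translated was not measured.

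Ninein had 2 exon regions, at opposite ends of the gene (ENSMUSG00000021068), and they differed in different comparisons. The early exon lies in the 5' untranslated region (UTR) and differed between the control classes by more than almost any other listed cassette. Its 411 nt form (chr12:70111072-70111482) was at 0.153 in Emx1-Cre controls and 0.833 in Gad2-Cre controls, with an FDR of 2.1e-12 and a coverage of 22.0, in the authors' deposited table. Its 47 nt form (chr12:70111436-70111482) was at 0.356 in Emx1-Cre controls and 0.944 in Gad2-Cre controls in the authors' deposited table, with an FDR of 8.49e-12 and a coverage of 70.0. Cells of the inhibitory class thus carried the exon in most Nin messages that were counted, and cells of the excitatory class carried it in the minority.

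The differences, Emx1-Cre minus Gad2-Cre, were -0.680 and -0.589, which ranked 1st and 4th of 534 listed cassettes in that table. Coverage of the 411 nt form was close to the lowest coverage listed, 20, and that of the 47 nt form was above the table's median of 52. Both forms share the 3' splice site at 70111482 and differ in their 5' splice site. Both are set against the same skipping message, Nin-211, so their levels are not independent. Both are GENCODE exons, the 411 nt form in Nin-203 and the 47 nt form in Nin-201, Nin-213 and Nin-215. The start codon lies in the next exon, at 70102831 to 70102833, after 21 bases of it. Neither form holds an ATG on the transcript strand, with 0 in each, and their GC content is 68.1% for the 411 nt and 78.7% for the 47 nt form. As annotated in these transcripts, inclusion therefore adds to the 5' UTR and lies outside the coding sequence. Whether some messages begin in this exon, rather than splice into it, was not tested. Neither form was listed in either cortical cKO table or in the Purkinje table.

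The late exon of Nin lies close to the end of the coding sequence and was listed in Emx1-Cre neurons after loss of Nova2. Its 61 nt form was at 0.800 in cKO, against 0.971 in controls, in the authors' deposited table, with an FDR of 0.0397. The forms of 59 and 54 nt were both at 0.781 in cKO, against 0.966 in controls, in the authors' deposited table, with FDRs of 0.0257 and 0.0395. A message can hold only a single form, so the forms cannot each be in most messages. Their levels are taken here as measures of the same exon and do not show how often each form was used. Coverage was 20.1 for all 3 forms. That is at the edge of what the authors listed, and the FDR of 0.0397 is the highest of all 20 events. The differences ran from -0.185 to -0.171, smaller in size than the median of 0.233 over the 912 listed cassettes. The exon was not listed in Gad2-Cre neurons, between controls or in Purkinje tissue, which at this coverage does not show that it was stable there.

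All 3 late forms share the 5' splice site at 70022281 and begin at 70022341, 70022339 and 70022334. The 61 nt form is a GENCODE exon of Nin-205, Nin-209 and Nin-215, all 3 annotated as targets of nonsense-mediated decay, and the other 2 forms are not in GENCODE. In the transcript Nin-202, skipping gave 2113 codons. The 61 nt form shifted the frame to a TAG 29 bases into the next exon, and the frame then had 1970 codons. With the 59 and the 54 nt form the stop lay inside the exon, and the frame had 1954 codons in both cases. The stop of the 61 nt form lies 280 bases ahead of the last exon junction.

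The exons of Ccdc64 and of late Nin were alike in annotation. Both are coding exons near the end of the open reading frame, and both end the frame early. In GENCODE both are in transcripts annotated for decay and in no protein-coding transcript. These features are linked, since an early stop is what the annotation for decay rests on, and they do not count separately. The exons of Dync2h1, Dync1i2 and early Nin are in protein-coding transcripts. The share of all listed cassettes with such features was not counted. In Emx1-Cre neurons the Ccdc64 and the late Nin exon both had lower levels in cKO, by very different amounts.

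The dynein 2 heavy chain Dync2h1 (ENSMUSG00000047193) had a 21 nt coding exon that was higher in Emx1-Cre neurons without Nova2. In the authors' deposited table its level was 0.672 in Emx1-Cre cKO, against 0.441 in Emx1-Cre controls, with an FDR of 0.0239 and a coverage of 71.3. The authors' deposited table of controls put it at 0.441 in Emx1-Cre controls and 0.871 in Gad2-Cre controls, with an FDR of 7.36e-06 and a coverage of 48. The exon thus went the other way from Ccdc64 and Nin in the Emx1-Cre cKO.

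The cKO minus control difference in Emx1-Cre neurons was 0.231, close to the median size of 0.233 among listed cassettes, and the exon ranked 460th of 912. Between controls the difference was -0.430, which ranked 29th of 534, against a median size of 0.204. The Emx1-Cre cKO level lay between the 2 control levels, with a difference of -0.199 from the Gad2-Cre controls. Both comparisons rest on the same Emx1-Cre control level of 0.441. A chance deviation of that group would move both. The exon was not listed in the Gad2-Cre cKO table or in Purkinje tissue.

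The 21 nt exon keeps the frame. It is in GENCODE in 1 protein-coding transcript, Dync2h1-206, and 3 transcripts skip it, of which 2 are protein coding. Read into the transcript Dync2h1-201, it gave 4313 codons, against 4306 without it. At 7 codons it is a microexon, a class of very short exons that neurons are known to use often.

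Dync1i2 (ENSMUSG00000027012), the intermediate chain of dynein 1, had the smallest difference of the 4 genes. Its 60 nt coding exon was at 0.879 in Emx1-Cre controls and 0.985 in Gad2-Cre controls in the authors' deposited table, with an FDR of 2.11e-11 and a coverage of 76.1. The difference of -0.106 was just past the authors' limit and ranked 516th of 534. Both classes therefore included the exon in most messages. Loss of Nova2 gave no listed event of the gene in any class. The exon is in 5 protein-coding transcripts of GENCODE and is skipped in 4 others, of which 3 are protein coding. With it the frame had 632 codons, against 612 without it.

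**Figure D3:**
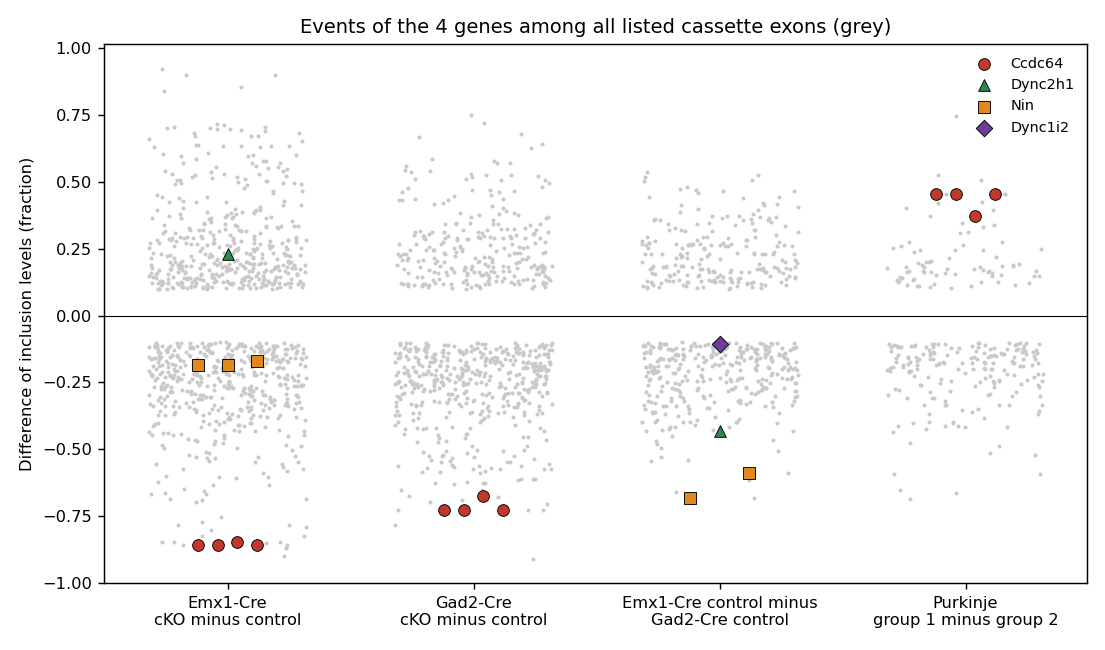
Difference of inclusion level (fraction, vertical axis) of every listed cassette exon (grey) in the 4 tables, with the events of Ccdc64, Nin, Dync2h1 and Dync1i2 in colour. Differences are cKO minus control in the first 2 columns, Emx1-Cre control minus Gad2-Cre control in the next and group 1 minus group 2 in the Purkinje column; the empty band around 0 is the authors' limit of 0.1, and the Ccdc64 points lie near the lower edge in both cortical cKO columns.

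Among Emx1-Cre events, 3 of the 4 genes were listed, while 4.64% of all protein-coding genes were. Of their 8 events, 7 were lower in cKO, where 53.1% of all listed cassettes were lower. A difference of at least 0.5 in size was found in 4 of the 8, all of them Ccdc64, and in 12.7% of all listed cassettes. In the Gad2-Cre table Ccdc64 alone was listed, with 3.93% of protein-coding genes. Its 4 events were all lower in cKO, as were 63.8% of the listed cassettes, and all 4 passed 0.5, as did 10.7%. These counts repeat the values that chose the genes, and overlapping forms count more than once.

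Between controls 3 of the 4 genes were listed, and 2.49% of protein-coding genes. All 4 events were lower in Emx1-Cre than in Gad2-Cre controls, as were 60.5% of the listed cassettes. The 2 Nin events passed 0.5, which 2.43% of listed cassettes did. In Purkinje tissue Ccdc64 alone was listed, with 1.17% of protein-coding genes. Its 4 events were higher in group 1, a direction that 29.5% of the listed cassettes had, and all 4 passed 0.3, as did 20.9%.

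NOVA proteins bind clusters of YCAY in RNA, that is TCAT or TCAC, and with the other pyrimidine in front also CCAT or CCAC. These 4 words, each counted also where it overlaps another by its end base, were counted in each GENCODE exon on both strands. On the transcript strand the 109 nt Ccdc64 exon held 0, while 83.3% of the 1265 internal exons of that length in protein-coding genes held at least 1. The 61 nt exon of Nin also held 0, against 59.2% of 924 exons of that length with at least 1. The 411 nt and 47 nt forms of early Nin held 4 and 0. Of exons of those lengths, 100% of 32 and 48.8% of 389 held at least 1. The Dync2h1 exon held 1, and 25.5% of 200 exons of 21 nt held at least 1. Dync1i2 held 2, and at least as many were found in 22.4% of 842 exons of 60 nt. On the other strand the counts were 1, 1, 8, 1, 1 and 0 in the same order. The introns, where NOVA is also known to bind, were not read here, and these counts say only which letters are in the exons.

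The genes most like Ccdc64 in the cortex were Sorbs2, Atp11b and Aff3. Among cassettes listed in both cortical cKO tables, likeness was measured as the root mean square difference of level from the 109 nt form over the 4 groups. The closest was a 1581 nt exon of Sorbs2, an adaptor of actin and adhesion sites (chr8:45794978-45796558), at 0.0378. By the authors' deposited tables it was at 0.153 in Emx1-Cre cKO and 0.942 in Emx1-Cre controls, and at 0.253 in Gad2-Cre cKO and 0.867 in Gad2-Cre controls. Next were a 126 nt exon of Atp11b, a phospholipid flippase (chr3:35843571-35843696), at 0.0461 and a 75 nt exon of Aff3, a nuclear factor (chr1:38538927-38539001), at 0.0651. Coverage of the Atp11b exon was 53 for Emx1-Cre and only 21 for Gad2-Cre, close to the lowest coverage listed, 20. In all 3 genes, as in Ccdc64, the exon was at 0.36 or less in both cKO groups and at 0.867 or more in both control groups. The genes were picked for closeness in these same levels, so the shared pattern follows from the choice and is no separate result.

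The rest of the dynein machinery was followed through a list of 67 genes, of which 63 are not among the 4 described above. After loss of Nova2 in Emx1-Cre neurons 9 of the 63 had a listed event, by the largest event of each gene 6 cassettes and 3 events of other types. Of the 6 cassettes, 4 were higher and 2 lower in cKO. For Gad2-Cre neurons 7 of the 63 were listed, with 1 cassette higher, 1 lower and 5 events of other types. Between controls 3 of the 63 were listed and in Purkinje tissue 2. By the largest event of each gene, of any type, the median size of the difference over the listed genes among the 63 was 0.246 for Emx1-Cre, 0.183 for Gad2-Cre, 0.202 between controls and 0.166 in Purkinje tissue. Measured the same way over all listed genes, it was 0.204 for Emx1-Cre, 0.205 for Gad2-Cre, 0.207 between controls and 0.178 in Purkinje tissue. The counts of list genes stand beside listed shares of 4.64% (Emx1-Cre), 3.93% (Gad2-Cre), 2.49% (between controls) and 1.17% (Purkinje) of all protein-coding genes, which include genes that these neurons do not express. The list was chosen with earlier results of these data known, so these counts do not show whether its genes were listed unusually often.

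Of 14 subunit genes of dynein 1, 0 were listed in either cortical cKO table or in Purkinje tissue, and 1, Dync1i2, was listed between controls. At the shares of 4.64%, 3.93% and 1.17% over all protein-coding genes, a list this short can hold 0 without standing apart. Of 5 dynein 2 genes, Dync2h1 alone was listed. Among 12 dynactin genes 1 was listed, in Emx1-Cre neurons. It was Capza1, a protein that caps the end of the dynactin filament as it does actin, with a 207 nt exon at 0.733 in cKO, against 0.469 in controls, in the authors' deposited table. Its coverage was only 23. Kif1c, Rab6a and Rab6b, the known partners of Ccdc64, had 0 listed events.

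The adaptors join the motor to cargo. Of 20 adaptor genes, 6 were listed in Emx1-Cre neurons, 4 in Gad2-Cre neurons, 2 between controls and 2 in Purkinje tissue, beside 4.64%, 3.93%, 2.49% and 1.17% of all protein-coding genes. These counts include Ccdc64 in the 3 cKO tables and Nin in the Emx1-Cre table and between controls, both chosen on these values. The rest of the list was also chosen with earlier results of these data known, so no excess of adaptors is read from the counts. An 84 nt exon of Ccdc88a, an adaptor known as girdin (chr11:29497343-29497426), was at 0.706 in Emx1-Cre cKO, against 0.418 in controls, in the authors' deposited table, with an FDR of 1.87e-15. The same exon was at 0.579 in group 1 and 0.735 in group 2 of the Purkinje table, with an FDR of 0.000789 in the authors' deposited table. It was thus lower in group 1 than in group 2. Neither group is named as the cKO, and no direction is drawn from that.

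Mapk8ip3, known as JIP3, which links dynein and kinesin to axonal cargo, had a 24 nt exon (chr17:24920472-24920495) at 0.526 in Emx1-Cre cKO, against 0.265 in controls, in the authors' deposited table, with an FDR of 7.45e-05. In the authors' deposited table of controls it was at 0.265 in Emx1-Cre and 0.551 in Gad2-Cre controls, with an FDR of 0.00189. Dync2h1 had the same order of levels, with Emx1-Cre cKO between the controls, and in both genes the Emx1-Cre control level is shared by both comparisons. Trak1, an adaptor of mitochondria, had an alternative 5' splice site whose first-named isoform was at 0.594 in Emx1-Cre cKO, against 0.839 in controls, in the authors' deposited table. In Gad2-Cre neurons that isoform was at 0.646 in cKO, against 0.96 in controls, again in the authors' deposited table. There its FDR was 0.0295 in the authors' deposited table and its coverage only 25. In Ccdc88c, the first-named of mutually exclusive isoforms was at 0.612 in Emx1-Cre cKO, against 0.822 in controls, and at 0.697 in Gad2-Cre cKO, against 0.806 in controls, in the authors' deposited tables.

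Of the 5 regulators, Clip1, known as CLIP-170, which helps dynactin reach growing microtubule ends, had the largest difference of the 63 genes in both cortical cKO tables. Its 117 nt exon (chr5:123627294-123627410) was at 0.673 in Emx1-Cre cKO, against 0.271 in controls, with an FDR of 1.36e-12 in the authors' deposited table. In Gad2-Cre neurons it was at 0.441 in cKO, against 0.123 in controls, with an FDR of 6.85e-11 in the authors' deposited table. Both classes therefore had more of this exon in cKO, while both had less of the Ccdc64 exon. Ndel1, a dynein regulator that works with LIS1, was listed in Gad2-Cre neurons, with its first-named mutually exclusive isoform at 0.452 in cKO, against 0.577 in controls, in the authors' deposited table.

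Of 8 centrosomal genes beside ninein, 3 were listed in Emx1-Cre neurons, where 4.64% of all protein-coding genes were, and nothing particular to so short a list is read from the count. A 71 nt exon of Cdk5rap2, which holds microtubule nucleation complexes at the centrosome, was at 0.0224 in Emx1-Cre cKO, against 0.166 in controls, and at 0.0222 in Gad2-Cre cKO, against 0.205 in controls, in the authors' deposited tables. Coverage of that exon was 36 and 21. A 117 nt exon of Pcm1, a centriolar satellite scaffold, was at 0.466 in Emx1-Cre cKO, against 0.630 in controls, in the authors' deposited table. The first-named 3' splice site isoform of Cep170, a partner of ninein at the mother centriole, was at 0.536 in Emx1-Cre cKO, against 0.407 in controls, and at 0.591 in Gad2-Cre cKO, against 0.408 in controls, in the authors' deposited tables. Between controls Odf2, a protein of the appendages that hold ninein, was at 0.764 in Emx1-Cre and 0.897 in Gad2-Cre controls for its first-named 5' splice site isoform in the authors' deposited table. Its FDR of 0.04997 in the authors' deposited table was at the authors' limit, with a coverage of 49.0. In Purkinje tissue the authors' deposited table listed a retained intron event of Tubgcp2, a subunit of the microtubule nucleation complex, at 0.157 in group 1 and 0.334 in group 2.

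**Figure D4:**
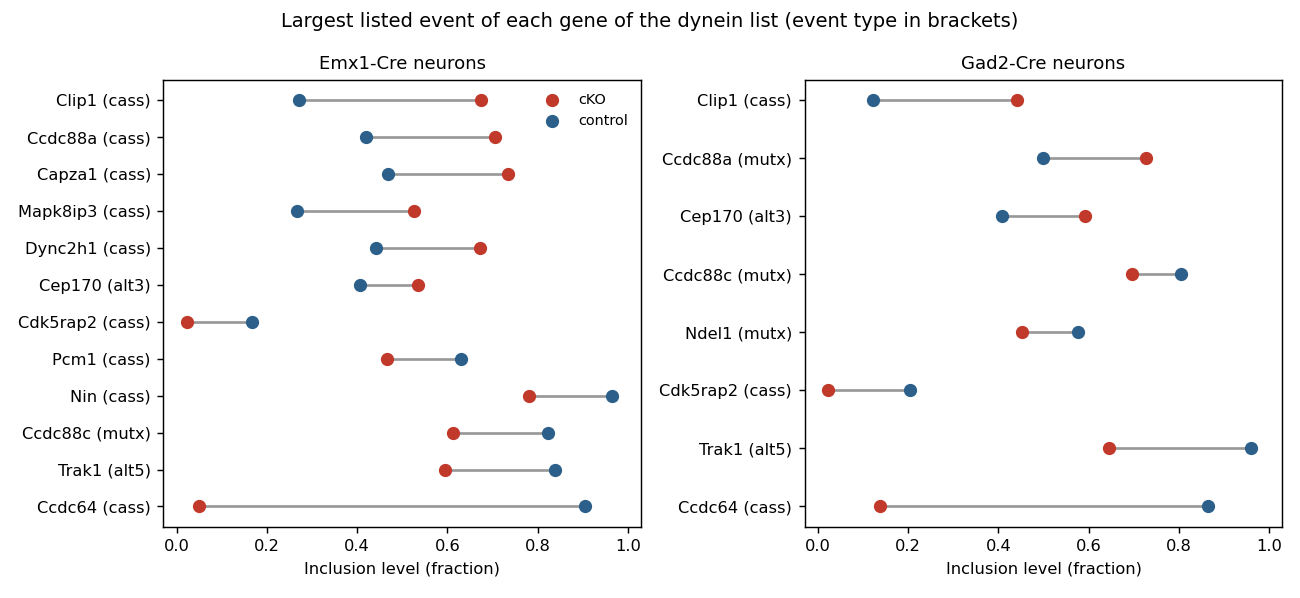
Inclusion level (fraction, horizontal axis) in cKO (red) and control (blue) for the largest listed event of each listed gene of the dynein list, in Emx1-Cre neurons on the left and Gad2-Cre neurons on the right, with the event type in brackets (cass, cassette; alt5 and alt3, alternative splice sites; mutx, mutually exclusive exons). Ccdc64 has the longest bar in both panels, and Clip1 has the longest bar among genes that were higher in cKO.

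In the plot of the dynein list, Clip1, Ccdc88a and Cep170 had higher levels in cKO in both cortical classes, and Ccdc64, Cdk5rap2, Trak1 and Ccdc88c lower ones. For Ccdc88a the largest events differ in type, a cassette in Emx1-Cre neurons and mutually exclusive exons, at 0.728 in cKO and 0.498 in controls, in Gad2-Cre neurons by the authors' deposited table. In events that are no cassettes, higher and lower refer to the first-named isoform.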

How the data were processed

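RNA was extracted with TRIzol and libraries were made with a TruSeq kit, per the labels' protocols. The authors quantified splicing with Quantas on mm10, per the labels. For each group there is 1 pooled inclusion level per event, a fraction, per the file headers, beside the authors' p-value and FDR. The aligner, versions and strandedness are not given in the sources used here. Event coverage is a deposited signal without a stated definition. The authors pooled the samples, so no test across samples was possible, sample depth is unknown, and no interval is given. No test was run here.

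Deposited differences are group 1 minus group 2 and were recomputed from the levels as cKO minus control, or as Emx1-Cre minus Gad2-Cre controls. The labels name the control first in both cortical cKO tables and Emx1-Cre first in the table of controls, and name no order for the Purkinje table. The control levels of the cKO tables equalled those in the table of controls at all 307 (Emx1-Cre) and 323 (Gad2-Cre) shared events. Exon positions came from the deposited interval lists and were matched to GENCODE M21 on exact ends, and reading frames were built by inserting each exon into a transcript that skips it. No other annotated gene overlaps the exons (0 found).

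Genes were named as follows: all events of the 4 genes, each listed gene of the 67-gene list by its largest event, and the 3 genes most like Ccdc64. The members and lists were chosen with earlier results of these data known. Alternatives were stricter limits of difference (0.2), FDR (0.01) and coverage (50), and counting overlapping events once. Steps ran in Python 3.11.15 with pandas 2.3.3. Only the helper functions for likeness, overlap of events and YCAY counts were tested on simulated data.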

Additional observations from a re-analysis of the deposited data

How the results depend on the processing

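Counts of listed events depend on the limits and on overlap. In the Emx1-Cre table the 8 events of the 4 genes became 5 at a difference of at least 0.2, 4 at an FDR of at most 0.01, 5 at a coverage of at least 50 and 3 with overlapping events counted once. Counted once, the 4 events became 1 in the Gad2-Cre and 1 in the Purkinje table. Between controls 4 became 2 at a coverage of at least 50. Of the dynein list, 8 genes became 4 in the Gad2-Cre table and 3 became 1 in the Purkinje table at a difference of at least 0.2. The other counts stayed within 1.5 times the value as listed. The late Nin exon passed none of the stricter limits, and the Dync2h1 exon in the Emx1-Cre cKO passed all but that on FDR.

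No paired analysis was possible because the tables hold 1 pooled level per group. For the same reason leaving out a sample was not run, and the counts of YCAY in windows of intron were not run because no genome sequence was given. Low coverage limits the late Nin exon and the 411 nt form of the early one most.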
